A study of Mus musculus with 38 samples.

Results

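L1Md elements are the mouse LINE-1 retrotransposons of the A, T, Gf and F lineages. The copies described here were all rows of the table of individual transposable elements (TEs) whose name before the copy number begins with L1Md_. This rule took 126672 of the 3494634 TE copies in the table and used no measured value. They belong to 6 of the 1153 TE subfamilies of the companion tables, namely L1Md_A (16844 copies), L1Md_T (23688), L1Md_Gf (1080), L1Md_F (4016), L1Md_F2 (64898) and L1Md_F3 (16146). Copies of 5 kb and over are called long here and all others short. There were 13426 long and 113246 short copies, so that 10.6% were long. The median length was 742 bases. Long copies numbered 5059 in L1Md_T, 3951 in L1Md_F2, 3304 in L1Md_A, 844 in L1Md_F3, 157 in L1Md_F and 111 in L1Md_Gf.

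LINE-1 elements copy themselves through an RNA that starts at a promoter in their own 5′ end and encodes an RNA-binding protein and a protein with endonuclease and reverse transcriptase activity. Reverse transcription often stops early, so most genomic copies lack the 5′ end and its promoter, and a read in such a copy can come from a longer transcript that passes through it. The A, T and Gf lineages are known to hold elements that still move in laboratory mice, whereas the F lineage is older. Trim28 (KAP1, TIF1β) is a co-repressor that KRAB zinc finger proteins bring to TEs, where it recruits the histone methyltransferase Setdb1. It is best known in the mouse for silencing long terminal repeat (LTR) elements such as IAP and MMERVK10C, and in embryonic stem cells also for binding some LINE-1 copies.

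The study removed Trim28 from mouse neural cells in 5 experiments and sequenced polyadenylated RNA from 32 libraries, each set against the controls of its own experiment. In the NPC experiment, neural progenitor cells from the forebrain of embryonic day 13.5 embryos, homozygous for a Cas9-GFP knock-in, received a lentiviral vector with a guide RNA and a nuclear red reporter. Reporter-positive cells were sorted after 10 days. A guide to Trim28 exon 3, 4 or 13 was used in 2 KO libraries each, and a guide to lacZ in 2 control libraries. These 8 libraries form 2 number series, each with 1 library for each guide. In the Cas9 experiment, adult Cas9 knock-in mice received AAV vectors with the same guides in the forebrain, and nuclei were sorted 2 months later (4 KO libraries, 1 lacZ control). In the StopCas9 experiment Cas9 was switched on by an AAV with Cre under the neuron-specific Synapsin1 promoter (4 KO libraries, 1 control), also for 2 months. In the flox experiment, adult Trim28-flox (+/-) and (+/+) mice received AAV vectors with Cre or nuclear GFP. Nuclei were taken after 2 months (4 libraries with each label). In the paper the KO animals are Trim28-flox (+/+), and the genotype of each library is not given here. In the Emx experiment, cortex was taken at 3 months from mice with Emx1-Cre (+/-) that were Trim28-flox (+/+) in 3 KO libraries or Trim28-flox (+/-) in 3 controls. Emx1-Cre acts in cells of the Emx1 lineage, which holds the excitatory neurons and also glia, whereas cortical cells outside it, such as interneurons and microglia, keep Trim28. The controls carry Cre and lose 1 allele in the same lineage. In tissue and sorted nuclei, fewer cells of a type and less RNA per cell cannot be told apart.

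The letters of these copies show what the rows of the table are. The short sequences here, read 5′ to 3′ on the strand of the copy from GRCm38, span the seams between neighbouring rows of the table at loci where copies were called in the NPC or Emx experiment. Capitals mark the first 15 bases of the downstream row.
L1Md_A_dup7456 to L1Md_A_dup7457, chr9:5940512-5940541, plus strand: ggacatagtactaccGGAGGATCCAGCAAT
L1Md_F2_dup57416 to L1Md_F2_dup57417, chr15:89749097-89749126, plus strand: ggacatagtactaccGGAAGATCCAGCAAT
L1Md_F2_dup12736 to L1Md_A_dup3160, chr3:133895722-133895751, minus strand: tagaacagcaatggcGGCGGAATCACCATG
In each pair 0 bases lie between the rows, so the annotation split 1 stretch of LINE-1 sequence into 2 rows. The first pair and the second have the same 15 bases upstream of the seam, although the rows are named for different lineages and lie on different chromosomes. The letters GATCCAGCAAT, searched on the strand of the copy, occur in the first 30 bases of 9380 of 112929 short copies (8.31%), whose median length is 996 bases. Among the short copies tested in any experiment 143 of 2859 (5.00%) had them, and among the 24 called up in the NPC or Emx experiment 2 had them (8.33%), the downstream rows of these first pairs. With rows within 50 bases on the same strand joined, 33.7% of all short copies had a neighbour, against 28.5% of those tested and 13 of the 24 called up (54.2%). Most of these chains stayed under 5 kb, since 14.3% of all short copies and 3 of the 24 (12.5%) lay in a chain of that length. Neighbouring short rows are therefore counted in the text as loci as well as copies.

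The open reading frames separate the subfamilies further. The longest run from ATG to stop on the strand of the copy was read in the 13386 long copies on assembled chromosomes, and it reached 1200 codons, about the length of the second LINE-1 protein, in 1620 of them (12.1%). These were 1077 L1Md_T copies (21.3% of the long copies of the subfamily), 538 L1Md_A (16.3%) and 5 L1Md_F2 (0.127%), with 0 in L1Md_Gf, L1Md_F and L1Md_F3. The beginning of the frame is shown for the long copy called up in the NPC or Emx experiment that has the longest frame. Capitals mark the start codon.
L1Md_F2_dup60373 (1184 codons), chr17:34766445-34766474, minus strand: ATGaaaggatggaaaacaattttccaagca
A copy with a frame of 1200 codons was among the long copies called up in neither experiment (0 of 6 in NPC, 0 of 8 in Emx). Such copies made up 2 of the 85 long copies tested in NPC (2.35%) and 1 of the 47 tested in Emx (2.13%), so few could have been called.

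Gene counts per library ranged from 8790346 to 25345083, and L1Md copies held 10758 to 102687 uniquely mapped counts per library. Levels are given as CPM, counts per 1000000 normalised gene counts of the library. Trim28 fell in NPC (log2 fold change -1.81 ± 0.25 SE, adjusted p = 0.0319, 37.0 to 73.8 CPM in KO against 156 and 204 in controls) and in Emx (-1.39 ± 0.15, adjusted p = 0.000364, 6.06 to 8.85 against 19.0 to 21.4 CPM). In Cas9 it was 94.2 to 105 CPM against 142 in the single control (adjusted p = 0.418), and in StopCas9 the control (105 CPM) lay within the KO libraries (88.7 to 126 CPM). For Cas9 and StopCas9 the paper reports efficient gene editing and loss of Trim28 protein in neurons, which these RNA levels do not measure. In flox, where the paper reports loss of the Trim28 transcript in KO nuclei, Trim28 went against the labels. It was higher in the libraries labelled KO (130 to 146 CPM) than in those labelled control (25.6 to 31.7 CPM, adjusted p = 2.94e-06), so flox directions are given for the libraries as labelled. The label check by markers held, with Nes and Sox2 high in NPC (from 261 and 399 CPM), the neuronal gene Rbfox3 at 140 to 250 CPM in the nuclei and the excitatory gene Slc17a7 at 350 to 503 CPM in Emx cortex. A single Emx KO library, number 76, stood apart, with 25.9% of its gene counts in genes that overlap ribosomal RNA sequence (0.194 to 0.798% in the other Emx libraries), and results that rest on it are given with and without it.

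Reads were seen in 48981 of the 126672 L1Md copies (38.7%) over all 32 libraries, and in 2932 to 14495 copies in any single library. Long copies were seen more often than short copies (78.8% against 33.9%). Among long copies the share with a read was 93.6% in L1Md_T, 91.2% in L1Md_A, 88.3% in L1Md_Gf, 59.2% in L1Md_F, 56.2% in L1Md_F2 and 50.5% in L1Md_F3. Long copies with a frame of 1200 codons had a read in 96.8% and others in 76.6%. The tables that share reads among all their mapping sites held more counts than the unique table for L1Md_A (median ratio 1.53 over libraries) and L1Md_T (1.46), and fewer for L1Md_Gf (0.739), L1Md_F (0.874), L1Md_F2 (0.853) and L1Md_F3 (0.816). A read that matches near-identical copies equally well is absent from the unique counts. By these medians the individual copies of L1Md_A and L1Md_T are the ones most undercounted. Different programs made the counts, so a ratio under 1 does not show that few reads were lost. For L1Md_Gf the ratio ran from 0.170 to 2.25 over libraries. L1Md_Gf_dup993 held 31.1% (StopCas9) to 75.5% (flox) of its short-copy unique counts, so the place of L1Md_Gf is not settled.

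L1Md RNA was most abundant in the sorted nuclei and lowest in the sorted progenitor cells and cortex tissue. Summed over long copies, NPC libraries held 120 to 317 CPM, Emx libraries 222 to 917, flox 893 to 1381, Cas9 1760 to 2248 and StopCas9 1691 to 3475. Short copies held 884 to 1569 CPM in NPC, 1039 to 1303 in Emx, 2479 to 4428 in flox, 2964 to 3764 in Cas9 and 3179 to 5075 in StopCas9. The ranges of the 3 nuclear experiments did not overlap those of NPC in either length class. Of all TE counts, L1Md copies took 1.21 to 1.95% in NPC, 2.48 to 2.72% in Cas9, 2.19 to 3.15% in StopCas9, 2.09 to 3.24% in flox and 2.20 to 3.59% in Emx. On this scale NPC lay below the 4 others, and the Emx cortex overlapped the nuclei. RNA source, mouse line and library batch differ together between the experiments and cannot be told apart.

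Within each experiment the summed L1Md level of KO and control libraries overlapped or could not be separated by the test. In the NPC experiment, long copies held 317, 252 and 280 CPM in the KO libraries of the first number series against 169 in its control, and 201, 179 and 133 CPM against 120 in the second. Every KO library thus exceeded the control of its own series, while the lowest KO library of the second series lay below the control of the first. The mean log2 difference was 0.62 (exact two-sided permutation test p = 0.143, smallest possible p 0.0357). The exon 13 library of the second series was the only KO library below a control. Without it the difference was 0.76, and the exact permutation p of 0.0476 was then the smallest possible. Leaving out the library that overlaps separates the groups, so this p was fixed by the choice and is no support. For short copies the difference was 0.33 (exact permutation p = 0.25).

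In Cas9, the single control (1760 CPM over long copies) lay below all 4 KO libraries (1908 to 2248), a log2 difference of 0.22, and in StopCas9 the control (2025) lay between KO libraries of 1691, 1919, 2513 and 3475. With 1 control the exact permutation p cannot fall below 0.2, and it was 0.2 in Cas9 and 1 in StopCas9. In flox the libraries labelled control held 1140, 1381, 1278 and 1345 CPM over long copies. Those labelled KO held 893, 947, 1173 and 1056, a log2 difference of -0.34 (exact permutation p = 0.0571). The library labelled KO at 1173 CPM was the only one of that label above a control. Without it the difference was -0.41, and the exact permutation p of 0.0286 was then the smallest possible. This p too was fixed by leaving out the library that overlaps, and is no support. In Emx the KO libraries held 280, 267 and 917 CPM over long copies against 222, 240 and 262 in the controls, a log2 difference of 0.76 (exact permutation p = 0.1, the smallest possible). KO library 76 supplied the value of 917, and the others lay just above the highest control. Without library 76 the difference was 0.18 (exact permutation p = 0.2). The ratio of long to short copies gave log2 differences of 0.29, -0.03, 0.05, -0.18 and 0.64 in NPC, Cas9, StopCas9, flox and Emx. Exact permutation tests gave adjusted p of 0.268, 1, 1, 0.524 and 0.268. The smallest possible unadjusted p was 0.0357, 0.2, 0.2, 0.0286 and 0.1. After adjustment none of these could pass, so the test cannot decide. In Emx the unadjusted p was the smallest possible, and the difference was 0.11 without library 76.

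**Figure D1:**
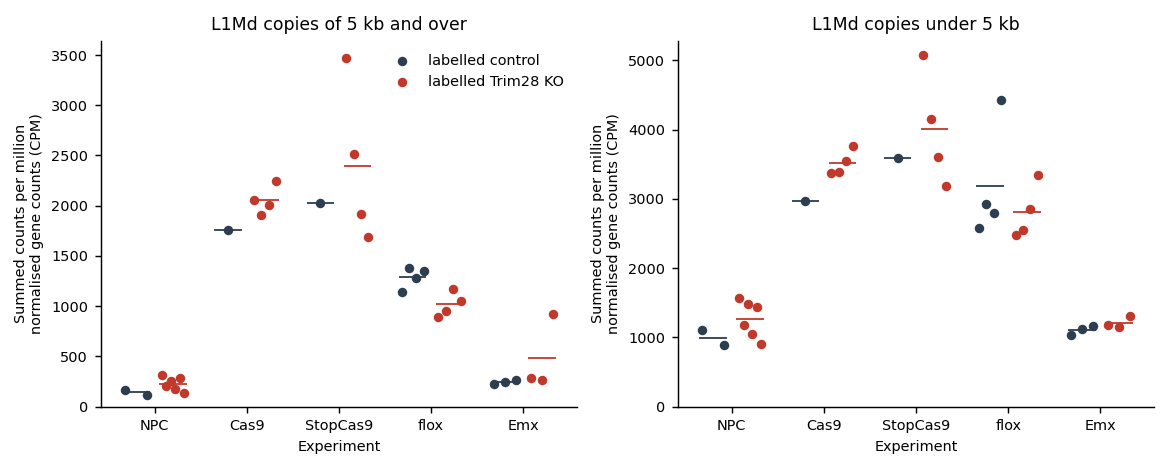
Summed L1Md counts scaled to gene counts (CPM) in each of the 32 libraries, for copies of 5 kb and over (left) and under 5 kb (right), by experiment and label. Points are libraries and horizontal lines group means, and the Emx KO library at 917 CPM over long copies is number 76.

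Each subfamily was then tested as 2 rows, its long and its short copies summed, among all TE subfamilies split in the same way. A row or copy is called when its Benjamini-Hochberg adjusted p is under 0.05 and its log2 fold change exceeds 0.5 in size. In NPC 0 of 12 L1Md rows were called against 1.12% of all TE rows (3 of the 12 had an unadjusted p under 0.05, and DESeq2 also called 0). All 12 fold changes were above 0, as was the median over all TE rows (0.22), and 10 remained above 0 when libraries were scaled by TE counts. Long copies had the larger changes in every subfamily. They were 0.61 ± 0.33 in L1Md_A, 0.68 ± 0.26 in L1Md_T, 0.91 ± 0.60 in L1Md_Gf, 0.87 ± 0.37 in L1Md_F, 0.62 ± 0.30 in L1Md_F2 and 0.79 ± 0.32 in L1Md_F3 (log2 ± SE, adjusted p 0.309 to 0.516), against 0.11 to 0.53 for short copies.

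Libraries of the same NPC number series deviated together, and with the series as a replicate block 4 long rows were called, L1Md_A (0.60, adjusted p = 0.041), L1Md_T (0.65, adjusted p = 0.030), L1Md_F2 (0.60, adjusted p = 0.029) and L1Md_F3 (0.78, adjusted p = 0.029), while 5.12% of all TE rows were called up by that fit. Long L1Md_T copies show the pairing in the values. The first series held 116, 83.3 and 90.9 CPM in KO against 54.8 in its control, and the second 72.0, 66.7 and 50.1 against 45.0. All 6 KO libraries were above the control of their series, and the lowest of them was below the control of the other.

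In the Cas9 and StopCas9 nuclei 0 of 12 rows were called, against 4.33% of all TE rows in Cas9 and 0% in StopCas9. The row nearest to a call was L1Md_F3, long, in Cas9 (0.53 ± 0.18, adjusted p = 0.0515), which DESeq2 called, as did edgeR with the limit for long copies at 6 kb. The median over all TE rows in Cas9 was 0.27. In Cas9 12 rows lay above 0, and 3 of them with TE scaling. In StopCas9 the changes ran from -0.19 to 0.40, with 0 rows at an unadjusted p under 0.05. With both mouse lines in 1 fit, 0 of 12 rows were called (0.114% of all TE rows) and the changes ran from -0.02 to 0.35, with 2 rows at an unadjusted p under 0.05. In flox 0 rows were called (0% of all TE rows, by DESeq2 also 0) and all 12 lay below 0, from -0.07 to -0.37, under both scalings. The 3 flox rows with an unadjusted p under 0.05 were the long copies of L1Md_A, L1Md_F2 and L1Md_T, lower in the libraries labelled KO, which are those with more Trim28.

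In the Emx cortex 1 row rose, the long copies of L1Md_F3, against 4.3% of all TE rows called. They held 34.1, 48.9 and 50.5 CPM in KO against 14.7, 15.4 and 17.2 in controls, with no overlap (1.49 ± 0.13, adjusted p = 2.34e-06). A single copy carried this change. L1Md_F3_dup14136 supplied 52.9% of the row's counts, and without it the log2 ratio of the group means fell from 1.49 to 0.25. Long L1Md_A copies held 37.1, 32.8 and 42.3 CPM against 25.0, 25.8 and 30.0, also without overlap, and passed on p (adjusted p = 0.015) with a change under the limit (0.47 ± 0.11). Long L1Md_T copies held 58.9, 57.1 and 675 CPM against 49.8, 59.5 and 66.7. The value of 675 was library 76, and 1 copy, L1Md_T_dup18258, made up 66.8% of the row. The fitted change of 2.16 ± 0.69 did not pass (adjusted p = 0.11), and the ratio was 0.19 on the log2 scale without that copy. Long L1Md_F2 copies overlapped between the groups (126 to 146 CPM against 130 to 144). In this row too a single copy weighed heavily, since L1Md_F2_dup28825 held 58.5% of the counts, and the log2 ratio of the group means was 0.02 with it and 0.40 without it. The largest long L1Md_A copy, L1Md_A_dup12996, held 16.3% of its row, whose ratio was 0.47 with it and 0.63 without it.

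**Figure D2:**
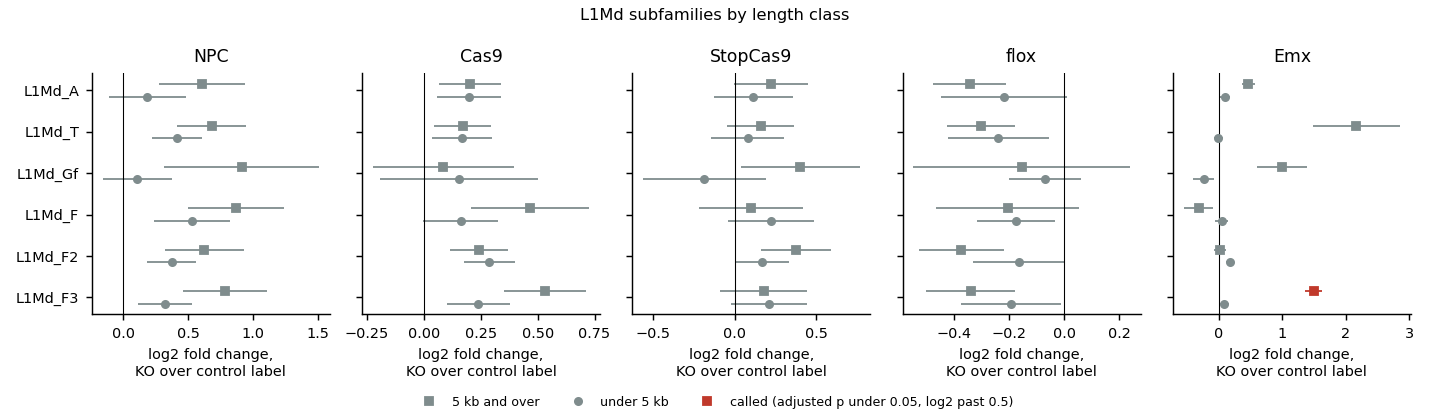
Log2 fold change of KO over control labels for the 6 L1Md subfamilies (rows), with long copies as squares and short copies as circles, bars of 1 SE and a panel and scale for each experiment. The only called row, in red, is L1Md_F3 of 5 kb and over in Emx (1.49), and the flox points all lie left of 0.

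The tables with shared multi-mapped reads, in which TE rows set the scale, gave 0 of 6 subfamilies called in every experiment by edgeR and by DESeq2, against 0.999% of all TE subfamilies in NPC, 0% in Cas9, 0% in StopCas9, 0% in flox and 4.09% in Emx. Unadjusted p fell under 0.05 for 2 subfamilies in NPC, 0 in Cas9 and StopCas9, 4 in flox and 1 in Emx. The largest NPC changes were L1Md_Gf (0.70 ± 0.31) and L1Md_F2 (0.28 ± 0.08, adjusted p = 0.182), and in Emx L1Md_T (0.53 ± 0.29) and L1Md_F2 (0.17 ± 0.05, adjusted p = 0.132). The L1Md_T value rested on library 76, with 42883 counts per 1000000 TE counts against 15992 and 16436 in the other KO libraries and 16986, 18035 and 16921 in the controls. In flox all 6 lay between -0.24 and -0.38.

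The difference between experiments was tested as an interaction. With all libraries as labelled, the Emx and flox effects differed for long L1Md_F3 copies by 1.81 ± 0.35 on the log2 scale (adjusted p = 0.00162, with 1.66% of all TE rows called), and for long L1Md_T copies by 2.43 ± 0.64 (adjusted p = 0.0432). The L1Md_F3 difference has L1Md_F3_dup14136 in its Emx effect. The L1Md_T difference was 0.28 without Emx library 76 and was then not called. Since the flox labels go against Trim28, the sign of a flox effect follows the labels only. With the flox labels turned, an alternative chosen after seeing the data, the differences were 1.12 ± 0.34 for L1Md_F3 (adjusted p = 0.178) and 1.81 ± 0.64 for L1Md_T (adjusted p = 0.38), and 0 L1Md rows were called. Between NPC and flox (0.773% of all TE rows called) and between NPC and Emx (0.221%) 0 L1Md rows were called, with 8 and 2 at an unadjusted p under 0.05.

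Individual copies showed what the sums did not, a small number of L1Md loci with reads almost only in the KO libraries. In NPC 619 copies passed the filter on low counts, 15 were called up and 0 down. This is 2.42% of the L1Md copies tested, against 0.556% of all TE copies called up and 0% called down (1 L1Md copy was lower at an unadjusted p under 0.05). A copy at 0 in the controls passes the filter only through its KO counts. Of the tested long copies 6 of 85 were called (7.06%, against 9.03% of other long TE copies), and of the short copies 9 of 534 (1.69%, against 0.522% of other TE copies of any length). The median log2 change of tested L1Md copies was 0.43, and it was 0.20 over other TE copies. With the replicate block 35 copies were called (5.65%, against 1.14% of all TE copies). Leaving out the controls one at a time gave 4 calls without that of the first series (0.465%, against 0.109% of all TE copies) and 3 without that of the second (0.348%, against 0.121%).

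The 15 NPC copies lay at 10 loci and belonged to L1Md_F2 (12, of which 4 long), L1Md_A (2, of which 1 long) and L1Md_T (1, long). In all 15 the KO libraries lay above both controls, as they did in 195 of the 195 TE copies called up. The copy with the largest change was L1Md_T_dup22646 on chromosome 18, 5190 bases long. Its counts were 203, 74 and 109 in KO and 0 in the control of the first series, and 30, 27 and 20 in KO and 0 in the control of the second. With the floor of 3 counts in each control library it was at least 29.2-fold higher (fitted log2 9.28 ± 1.59, adjusted p = 0.015). The fitted size depends on the prior count where controls are at 0. Called LTR copies lay on both sides of L1Md_T_dup22646 on the opposite strand. These were IAP1-MM_I-int_dup462, 1042 bases downstream (log2 8.04), and RLTR10-int_dup2468, 3774 bases upstream (8.23).

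L1Md_F2_dup32269 (chr9:109505043-109506600, minus strand) lay between genes, 9168 bases from Fbxw19, which encodes an F-box protein. It held 48, 43, 33, 28, 52 and 13 counts in the KO libraries and 0 in both controls (at least 13.9-fold higher, adjusted p = 0.00085). It did not stand alone. An internal region of an IAP element, IAP1-MM_I-int_dup253, lay 4093 bases upstream on the same strand and was called (log2 7.77, adjusted p = 0.00176), and so was RMER16-int_dup1296, 3 bases downstream (7.18). Fbxw19 itself was at 7.49 to 15.3 CPM in KO and 0 in controls. This copy and L1Md_F2_dup57417 were the 2 of the 15 that were called under every alternative tried.

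The densest NPC locus was an intron of Gm26691 on chromosome 3, where L1Md_F2_dup12734, L1Md_F2_dup12735, L1Md_F2_dup12736 and L1Md_A_dup3160 followed each other within chr3:133892564-133896387 on the strand of the gene. Their fitted changes were 4.80 to 8.00. L1Md_F2_dup12734 (chr3:133892564-133893129) held 71, 46, 19, 27, 22 and 7 counts in KO and 0 in both controls (at least 11.8-fold higher, adjusted p = 0.0087). Gm26691, a predicted gene, rose with them from 0.535 and 0.793 CPM in controls to 6.65 to 14.9 in KO (log2 3.91 ± 0.465, adjusted p = 0.0169), so the reads in these rows cannot be told apart from those of the gene.

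On chromosome 15, L1Md_F2_dup57413 (chr15:89688568-89693722, plus strand, long, between genes) held 32, 30, 13, 27, 17 and 8 counts against 0 in both controls (at least 8.04-fold higher, adjusted p = 0.0027). Further downstream on the same strand, L1Md_F2_dup57417 (chr15:89749112-89750102) held 149, 82, 51, 52, 42 and 18 counts against 0 and 1 (6.86 ± 0.94, adjusted p = 0.0025), with L1Md_F2_dup57416 next to it at 75, 45, 22, 30, 24 and 14 against 2 and 0. L1Md_F2_dup50081 on chromosome 13 (chr13:22834483-22835326) held 7, 20, 18, 13, 25 and 5 counts against 0 and 0 (at least 5.69-fold higher, adjusted p = 0.015). It lay 3135 bases from the vomeronasal receptor gene Vmn1r210, which was at 1.96 to 3.15 CPM in KO and 0 in controls, and an ORR1A0 internal region 348 bases away was also called (7.96).

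Other long copies were called in NPC too. L1Md_F2_dup60373 (chr17:34762312-34768347), which has the 1184-codon frame, held 6 to 16 counts in KO against 0 in both controls (at least 4.02-fold higher, adjusted p = 0.027), and an internal region of an MMERGLN element 2309 bases downstream was called (4.49). L1Md_F2_dup46658 (chr12:6824348-6829591) held 7 to 26 counts against 2 in each control, and L1Md_F2_dup43877 (chr10:81890541-81896720) 34 to 184 against 28 and 33. The last was the only called copy with clear control expression. Its lowest KO library held 3.28 CPM against 1.64 CPM in the highest control. Of the 15 copies 11 lay between genes, 12 had another called TE copy within 10 kb and 5 had a called LTR copy. Among all TE copies called up in NPC, 72.3% had another called copy within that distance and 56.4% a called LTR copy.

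**Figure D3:**
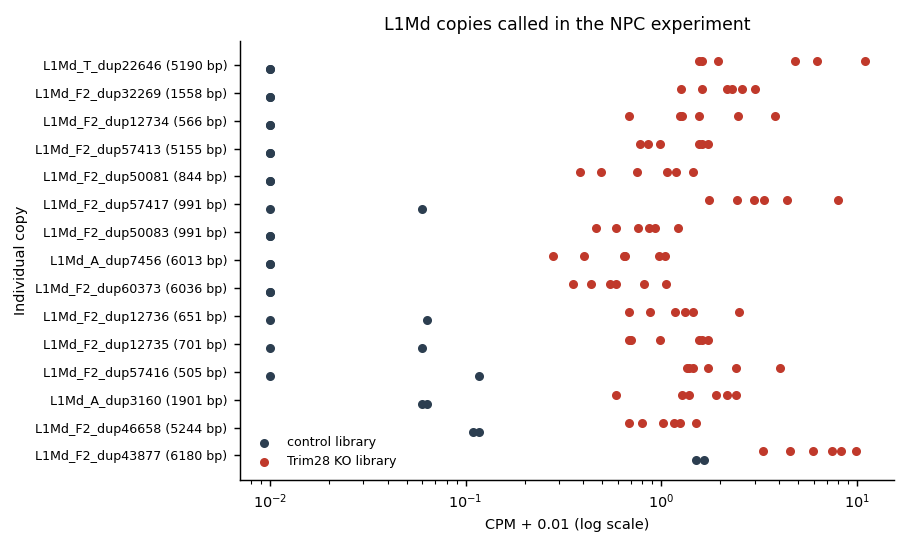
CPM plus 0.01 on a log axis for the 15 L1Md copies called up in the NPC experiment, with a point for each of 6 KO and 2 control libraries and the length of each copy beside its name. Controls at 0 sit at 0.01, and KO and control points do not overlap in any copy.

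In the Emx cortex 363 L1Md copies were tested, 25 were called up (6.89%) and 3 down, against 2.66% of all TE copies up and 0.254% down. Long copies were called up in 8 of 47 cases (17%, against 29.2% of other long TE copies) and short copies in 17 of 316 (5.38%, against 2.55% of other TE copies of any length). The median change was 0.03, and 53.7% of the tested L1Md copies lay above 0, against 50.5% of other TE copies. The 25 lay at 20 loci and belonged to L1Md_F2 (18, of which 3 long), L1Md_T (3, all long), L1Md_A (3, of which 1 long) and L1Md_F3 (1, long). KO and control libraries did not overlap in 22 of the 25, 15 had another called TE copy within 10 kb and 9 a called LTR copy. Among the 387 TE copies called up in Emx, 96.6% did not overlap, 50.9% had another called copy within that distance and 41.6% a called LTR copy. Without KO library 76, 19 of the 25 remained called and 23 stayed above 0.

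The highest changes were at copies silent or nearly silent in the controls. As in NPC, such copies pass the filter on low counts only through their KO counts, so the filter favours large rises among them. L1Md_A_dup7456 (chr9:5934514-5940526, plus strand, 6013 bases, between genes) held 90, 98 and 64 counts in KO against 0, 0 and 1 in controls (7.92 ± 0.45, adjusted p = 2.1e-14). L1Md_A_dup7457 (chr9:5940527-5941522), the row joined to its end in the first seam shown above, held 36, 23 and 20 against 0 in all 3 controls (at least 11.9-fold higher, adjusted p = 6.7e-09). The longest open frame of L1Md_A_dup7456 was 251 codons.

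L1Md_F2_dup57417 held 34, 20 and 18 counts against 0 in the controls (at least 10.8-fold higher, adjusted p = 1.9e-08), and L1Md_F2_dup32269 held 20, 22 and 20 against 0 (at least 9.49-fold higher, adjusted p = 4.1e-08). The IAP internal region upstream of the latter was again called (8.39), and Fbxw19 was at 4.75 to 8.22 CPM in KO and 0 in controls. L1Md_F2_dup23895 (chr6:142251328-142252122, plus strand) held 55, 52 and 66 counts against 0, 0 and 1 (7.42 ± 0.55, adjusted p = 1.1e-11). It lies in an intron of Slco1a5, an organic anion transporter gene on the opposite strand, which was at 1.91 to 3.40 CPM in KO and 0 to 0.109 in controls.

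At Gm2682 on chromosome 15, L1Md_F3_dup14136, L1Md_F2_dup56879 and L1Md_F2_dup55056 were called. This locus is named because of its share of the L1Md_F3 row and was chosen after its values were seen. L1Md_F3_dup14136 (chr15:60152860-60158979, minus strand, 6120 bases) held 342, 700 and 402 counts in KO against 88, 51 and 57 in controls (3.35 ± 0.20, adjusted p = 7.1e-14). It was at 0 in all 26 libraries of the other experiments. Among the other long copies, L1Md_F2_dup53291 (chr14:74318035-74324039) held 26, 41 and 24 counts against 1, 0 and 2, and L1Md_T_dup18590 on chromosome 13 rose by 2.01 ± 0.49 (adjusted p = 0.011) with an ETnERV internal region 3113 bases downstream (3.02). L1Md_F2_dup47023 (chr12:22985201-22988041) held 28, 28 and 22 against 1, 5 and 1 in an intron of 2410018L13Rik, a gene that moved from 0.267 to 0.653 CPM in controls to 8.15 to 9.34 in KO.

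A group of 3 called copies rested on library 76 alone. L1Md_T_dup18258 (chr13:9832021-9838665) held 66 and 116 counts in the other KO libraries and 7716 in library 76, against 143, 236 and 181 in controls, and its fitted change went from 4.58 to -0.81 without that library. L1Md_F2_dup32541 held 6, 8 and 401 against 14, 27 and 19 (3.50, and -1.24 without library 76), and L1Md_F2_dup51688 held 19, 18 and 471 against 21, 21 and 24 (3.66, and 0.04 without). L1Md_T_dup18258 overlaps an exon of Gm24187 on the same strand. Its longest exact match to Gm42418 and CT010467.1, ribosomal-RNA-overlapping genes that were high in this library, was 13 bases. The other called copies had longest matches of 9 to 13 bases to these genes, so this length sets L1Md_T_dup18258 apart from none of them. Lars2, also counted in that set of genes, and other ribosomal RNA sequence were not compared. The source of its reads was not tested. The part of that library's composition in these calls was not tested beyond leaving it out.

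The copies that fell in Emx were few. L1Md_T_dup8917 (chr7:7216427-7222868, minus strand, in an intron of Gm45844) held 0 counts in all 3 KO libraries and 17, 13 and 18 in the controls, at least 3.78-fold lower in KO (adjusted p = 1.8e-05). Gm45844 was at 0.474 to 0.722 CPM in KO and 1.56 to 1.90 in controls. In flox, where it did not pass the filter on low counts, L1Md_T_dup8917 held 44, 1, 59 and 33 counts in the libraries labelled KO and 0, 1, 0 and 0 in those labelled control. In NPC it showed no such gap (0.675 to 2.75 CPM in KO, 0.856 and 1.09 in controls), and Cas9 and StopCas9 libraries held 6.39 to 25.8 CPM. The copy lies 5.78 Mb from Trim28, where the Emx groups differ in their floxed alleles. Within 10 Mb of Trim28, 4 of 158 TE copies tested in Emx fell and 1 rose, against 33 and 386 of 14398 elsewhere, and the floxed chromosome cannot be told apart from the loss of Trim28 at this copy. The other 2 were L1Md_Gf_dup1050 on chromosome 18 (-1.25 ± 0.32, adjusted p = 0.019) and L1Md_A_dup12029 in an exon of Gm29674 (96, 104 and 43 counts against 211, 157 and 158, -0.68 ± 0.18, adjusted p = 0.024), and without library 76 only 1 of the 3 was still called.

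**Figure D4:**
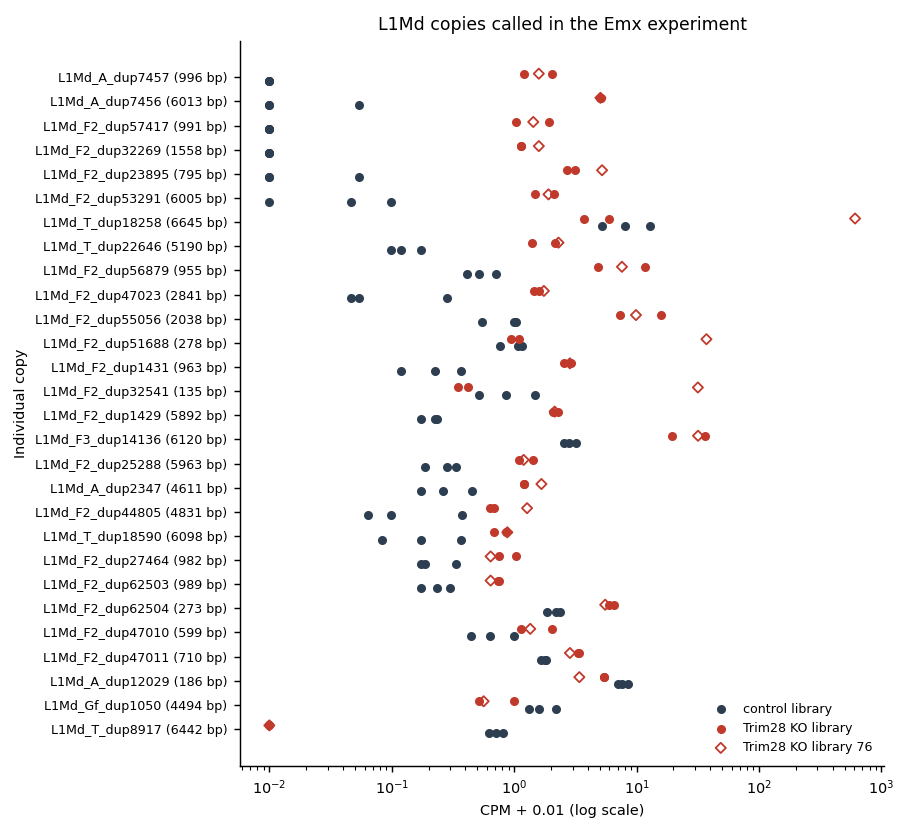
CPM plus 0.01 on a log axis for the 28 L1Md copies called in the Emx experiment, with a point for each of 3 KO and 3 control libraries, KO library 76 as an open diamond and the length of each copy beside its name. In L1Md_T_dup18258, L1Md_F2_dup51688 and L1Md_F2_dup32541 only the diamond lies above the controls.

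The copies called up in both NPC and Emx were L1Md_A_dup7456, L1Md_F2_dup57417, L1Md_F2_dup32269 and L1Md_T_dup22646, 26.7% of the NPC copies and 16% of the Emx copies. Of the copies called in NPC only these 4 passed the Emx filter, and 9 of those called in Emx were tested in NPC. No Emx control held more than 3 counts of any of these 4, so they passed that filter through their KO counts. Their being called in both is therefore no independent support. The matching share over all TE copies is not given here. In NPC L1Md_A_dup7456 held 5, 6 and 11 counts in KO and 0 in the control of the first series and 12, 18 and 10 against 0 in the second (at least 4.23-fold higher, adjusted p = 0.034). In Emx L1Md_T_dup22646 held 38, 27 and 29 counts against 3, 3 and 2 (3.96 ± 0.41, adjusted p = 1.9e-08). Its LTR neighbours IAP1-MM_I-int_dup462 and RLTR10-int_dup2468 were called in Emx too (3.58 and 5.23). So was IAP1-MM_I-int_dup460, 142 bases upstream on the opposite strand (4.90). The 2 experiments share no control library.

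Most of these copies held few or no counts in the nuclei. L1Md_F2_dup32269 held 0 counts in all 18 libraries of Cas9, StopCas9 and flox, L1Md_T_dup22646 held 0 to 5 and L1Md_F2_dup57417 0 to 10. L1Md_A_dup7456 held 3 to 18 counts in Cas9 KO libraries and 0 in the control (6.22 ± 3.34, adjusted p = 0.554). Its Cas9 direction was that of NPC and Emx, with a single control library and no call. The StopCas9 and flox counts of L1Md_A_dup7456 are left out here, so nothing is concluded on it for those nuclei. For the other copies, at the counts given, a difference between groups was not detectable.

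In the nuclear experiments 0 L1Md copies were called in either direction. Cas9 had 2459 copies tested (0.173% of all TE copies called up and 0.00386% down), with 200 higher and 48 lower at an unadjusted p under 0.05. StopCas9 had 2576 (0.0114% up and 0% down), with 57 higher and 5 lower. Flox had 1023 (0% up and 0.00641% down), with 5 higher and 48 lower in the libraries labelled KO. DESeq2 called 0 copies in Cas9 and StopCas9 and 1 lower copy in flox. The median change of tested copies was 0.80 in Cas9 (0.64 over all TE copies), 0.56 in StopCas9 (0.42 over all) and -0.15 in flox, where it was -0.31 over the 241 long copies and 0.10 over other TE copies. Without the Cas9 library with all 3 guides, 20 copies were called up in that experiment (0.988%, against 1.13% of all TE copies), and without the exon 3 library 1 (0.045%, against 0.0896%).

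Where L1Md copies lie in relation to genes differed between copies and reads. Of long copies 75.3% lay between genes, 14.2% in an intron on the opposite strand and 8.52% in an intron on the strand of the gene. Of the counts in long copies, the median share in same-strand introns was 17.0% in NPC, 39.2% in Cas9, 38.1% in StopCas9, 41.4% in flox and 15.1% in Emx. The nuclei had more of their long-copy counts inside genes read in the same direction than the cells and the tissue. Between genes the shares were 55.0%, 46.0%, 47.5%, 44.2% and 32.6% in the same order, all below the share of copies. In Emx a median of 33.6% of long-copy counts lay on the opposite strand of exons, a share that came from L1Md_F2_dup28825 and was 2.09% without it, and in library 76 67.3% lay in exons on the same strand. These counts lower the between-gene and intron shares of Emx, which are not given without them. For short copies, 71.3% of which lay between genes, 28.1 to 42.9% of the counts did (medians per experiment), and same-strand introns took 31.3% in NPC, 37.8% in Cas9, 35.9% in StopCas9, 34.9% in flox and 19.7% in Emx against 11.8% of the copies.

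**Figure D5:**
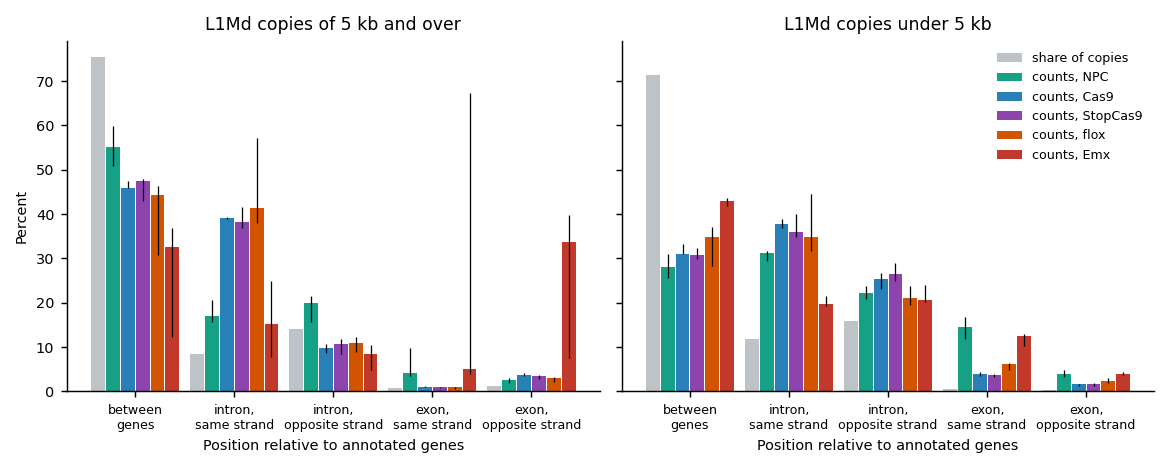
Share of L1Md copies (grey) and of L1Md counts (colours, median over the libraries of each experiment, lines from the lowest to the highest library) by position relative to annotated genes, for long (left) and short (right) copies, in percent. Same-strand introns hold 8.52% of long copies but a median of 38.1 to 41.4% of the long-copy counts in the nuclear experiments.

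The 3 long copies with the highest mean CPM over the 32 libraries were L1Md_F2_dup42642, L1Md_A_dup5183 and L1Md_T_dup18258. L1Md_F2_dup42642 (chr10:32269339-32275225, minus strand, in an intron of Nkain2 on the same strand) was at 62.0 to 158 CPM in Cas9, 42.6 to 151 in StopCas9 and 83.2 to 293 in flox, but 0 to 0.161 in NPC and 0.653 to 1.33 in Emx. Nkain2 encodes a membrane protein of neurons that interacts with the sodium pump. L1Md_A_dup5183 (chr6:14873816-14879948, minus strand, between genes and near Foxp2) was at 61.8 to 77.7, 64.3 to 124 and 32.3 to 73.6 CPM in the 3 nuclear experiments and at most 1.56 in NPC and 0.792 in Emx. L1Md_T_dup18258 was among them through Emx library 76.

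The 3 short copies with the highest mean were L1Md_F3_dup13729, L1Md_F2_dup16768 and L1Md_F2_dup59906. L1Md_F3_dup13729 (chr14:122704514-122709510, plus strand) has 4997 bases, just under the limit for a long copy, and lies in an intron of Pcca, a propionyl-CoA carboxylase gene, on the same strand. It was at 61.1 to 63.4 CPM in Cas9, 42.6 to 116 in StopCas9 and 18.9 to 70.3 in flox against 0.545 to 3.22 in NPC and 0.689 to 1.87 in Emx. L1Md_F2_dup59906, in an exon of Gm21926, was at 24.9 to 43.1 CPM in NPC, 26.3 to 31.6 in Emx, 17.2 to 29.7 in flox, 6.08 to 8.39 in Cas9 and 6.31 to 7.52 in StopCas9. None of these 3 was called in any experiment, and of the 3 long copies only L1Md_T_dup18258 was, in Emx.

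Genes known to restrain LINE-1 elements gave no call in any of the 5 experiments. The list held 18 genes of the HUSH silencing complex and its partners, DNA methylation, restriction factors and Gm6871, which encodes a KRAB zinc finger protein known to bind L1Md_F2 copies. The numbers tested by edgeR were 17 in NPC, 16 in Cas9, 16 in StopCas9, 15 in flox and 14 in Emx, with 0 called in each and 1 in NPC and 1 in flox at an unadjusted p under 0.05, both higher in the libraries labelled KO. Among all genes tested, 0.194% were called in NPC, 0% in Cas9, 0% in StopCas9, 0.0409% in flox and 1.32% in Emx, so that a list of this size would hold few calls at those rates. The NPC gene was Gm6871, at 0.578 to 1.61 CPM in the 6 KO libraries and 0.0535 and 0.198 CPM in the controls (3.14 ± 0.60, adjusted p = 0.133). Its KO and control libraries did not overlap, and in Emx it was at 0 to 0.103 CPM in KO and 0 in controls and was not tested. Setdb1, the methyltransferase that works with Trim28, was at 106 to 129 CPM in NPC KO libraries and 94.4 and 119 in controls.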

How the data were processed

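Polyadenylated, stranded RNA-seq (paired reads of 150 bases) from 32 libraries was analysed. The authors mapped reads with STAR 2.6.0, keeping unique alignments for the tables of individual TE copies and genes. The deposited counts in these tables are raw read counts from featureCounts (Subread 1.6.3) on the reverse strand, with each read of a pair counted. The authors' subfamily tables hold counts from TEtranscripts, which shares a read among up to 100 matching sites, so a subfamily count depends on that sharing and a copy count omits reads that fit several copies. The versions above come from the submitters' processing notes and the study's methods. A total of 6 columns of the TE table matched no sample and were not used. Single-nucleus gene matrices, chromatin signal and MMERVK10C tables were not used here.

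The members, the lists and the tests were chosen with earlier results of these data known. Copies were taken by name and split at 5 kb (5000 bases). Copies, subfamilies by length class and subfamilies with shared reads were fitted for each experiment with edgeR 4.0.16 (quasi-likelihood, R 4.3.3) over all TE rows that passed filterByExpr, with library sizes and TMM factors from the gene counts (from the TE rows for shared reads) and Benjamini-Hochberg adjustment over all rows. Combined and interaction fits used the same model. Sums and ratios were compared by exact two-sided permutation over libraries. DESeq2 1.42.0, no filter, TE scaling, other length limits, library series as blocks and leaving out each library were alternatives. In NPC, libraries of the same number series deviated together (correlation of deviations from the group means 0.556 to 0.692 over all 6 pairs of guide groups, with 2 series). The study's methods speak of biological replicates for NPC, and the labels do not say how cultures were kept apart, so p-values there measure the spread between these libraries. The fits were also run on simulated counts. Those libraries were independent, with a fixed spread and no number series, so that run does not test the NPC p-values.

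Copies were named by a rule. These were, among called copies whose KO libraries lie on 1 side of all controls, the 5 with the largest fold change in each direction per experiment, then copies called in more than 1 experiment and the 3 long and 3 short copies with the highest mean CPM. Other named copies were chosen after their values were seen. A floor of 3 counts in each library replaced groups at 0 in fold changes and covers counting error only. Positions come from the GENCODE vM21 annotation of GRCm38, whereas the authors counted with vM19, and sequences from GRCm38.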

Additional observations from a re-analysis of the deposited data

Results flagged for a closer look

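In 95 groups of 4 to 10 libraries the highest and lowest libraries were compared with their nearest neighbour by Dixon's criterion, which flags about 1 in 20 groups by chance, and 5 were flagged. In flox, the library labelled control with 1345 CPM over long copies had 23.3% of its L1Md counts in long copies (nearest library 30.6%) and 2685 CPM in short L1Md_F2 copies (nearest 1727 CPM). The flox library labelled KO with 1173 CPM over long copies had 236 CPM in long L1Md_A copies (nearest 189 CPM). In Cas9, the KO library with all 3 guides had 9.96 CPM in short L1Md_Gf copies (nearest 12.7 CPM) and the KO library with the exon 4 guide 164 CPM in short L1Md_F copies (nearest 135 CPM).

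The KO effect in Emx differed from that of the labels in flox for the long copies of L1Md_F3 (interaction of 1.81 on the log2 scale) and L1Md_T (2.43). Trim28 goes against the labels in flox, and with the flox labels turned the values were 1.12 and 1.81, neither of them called. The first has L1Md_F3_dup14136 in its Emx effect (a log2 ratio of the group means of 1.49 with that copy and 0.25 without it), and the second rested on Emx library 76.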

How the results depend on the processing

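Over the comparisons, 311 alternative values kept their direction and side of the threshold or stayed within the margin for counts, 28 counts moved, 2 tests passed that had not and 5 values turned. For single subfamily rows 1025 kept, 72 moved, 13 passed and 4 were lost, and for named copies 637 kept, 80 were lost, 35 moved and 2 turned.

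Copies called up in NPC were 25 with DESeq2, 28 with no filter, 35 with the replicate block and 3 to 21 with a library left out. The replicate block called 4 NPC subfamily rows, and leaving out a library called 0. The block changed no other NPC count. The NPC long-copy sum ran from 0.37 to 0.86 with a library left out. Without the exon 13 library of the second series, the lowest KO library, it was 0.76 (exact permutation p = 0.0476, then the smallest possible). Leaving out the library that overlaps fixed this p, which is no support. In Cas9, leaving out a library gave 0 to 20 copies up and 0 to 1 down, and 1 subfamily row was called with DESeq2, with the 6 kb limit and without the library with all 3 guides (0 to 1). In flox, 1 copy down was called with DESeq2, 3 with no filter and 8 with the number series as a replicate block, an alternative chosen after seeing the data, and 1 copy up with no filter. The flox long-copy sum ran from -0.41 to -0.28 with a library left out. Without the library labelled KO at 1173 CPM, the highest of that label, the exact permutation p was 0.0286, then the smallest possible. It was likewise fixed by leaving out the library that overlaps. In Emx, copies up were 17 with DESeq2, 41 with no filter and 22 to 27 with a library left out, copies down 1 with DESeq2 and 1 to 5 with a library left out (5 without KO 60, 1 without KO 76), and subfamily rows 2 with no filter or the 6 kb limit and 1 to 3 with a library left out (3 without KO 73, 2 without KO 60 or control 77). The Emx against flox interaction held 1 row with only those 4 groups, 1 without Emx library 76 and 0 with the flox labels turned.

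Values that turned were the StopCas9 ratio of long to short copies (-0.024 at 6 kb, -0.022 to 0.10 with a library left out), the StopCas9 long-copy sum (-0.0078 to 0.34, the lowest without the exon 13 library), the flox short-copy sum (-0.25 to 0.010, the highest without the library labelled control at 1345 CPM), the Emx short-copy sum (-0.073 without TMM factors), and, without Emx library 76, L1Md_F2_dup32541 (-1.24, and up to 4.11 without another library) and L1Md_T_dup18258 (-0.81, and up to 5.16). Apart from those that rest on library 76, the cause of these changes was not tested. Of the called copies, 2 of 15 in NPC over 13 settings and 16 of 25 up and 1 of 3 down in Emx over 10 settings were called in all. Unique mapping limits what the L1Md_A and L1Md_T copies can show, and 1 control library limits Cas9 and StopCas9.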
